A study of Mus musculus with 5 samples.

Results

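Dendritic cells take up antigen in tissues, carry it to lymph nodes and present it to T cells. The 10 genes described here were chosen by symbol, with earlier results of these data known. They encode receptors (Flt3, Itgax, Cd209a, Xcr1, Ccr7), chemokines (Ccl17, Ccl22) and transcription factors (Irf8, Batf3, Zbtb46) of conventional dendritic cells. All 10 were present among the 16992 gene symbols common to the 5 deposited tables. Levels are RPKM, reads scaled by transcript length and by sequencing depth, a unit inferred from the values. The libraries came from freshly sorted pancreas cells of C57BL/6 mice aged 2 to 4 months, with no treatment and no modified allele named in the labels. The CD133(positive)CD71(negative) group had 2 libraries. The CD133(high)CD71(low) group had 3, and its marker field reads CD133plus-CD71-plus. CD133 is the product of Prom1, a surface protein of duct and progenitor cells, and CD71 is the transferrin receptor. Whether leukocytes were gated out is not given in the sources used here. Nor do the labels say that libraries of 1 group are from different mice or sorts, and the p-values below then reflect library-to-library spread, which may be technical.

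Conventional dendritic cells arise from marrow precursors under the cytokine Flt3 ligand and fall into 2 main subsets. The cDC1 subset depends on IRF8 and BATF3, carries XCR1 and cross-presents antigen to cytotoxic T cells. The cDC2 subset depends more on IRF4 and includes cells that carry the lectin CD209a and prime helper T cells. On maturation cells of either subset gain CCR7, which guides them to lymph nodes, and many then secrete CCL17 and CCL22, the ligands of CCR4 on T cells.

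All 10 dendritic cell genes were lower in CD133(high)CD71(low) than in CD133(positive)CD71(negative) cells. Their summed level was 59.7 and 54.0 RPKM in libraries 1 and 2 of CD133(positive)CD71(negative) cells. It was 4.02, 3.61 and 3.17 RPKM in libraries 1 to 3 of CD133(high)CD71(low) cells, a ratio of 15.8. Zbtb46 alone held 3.22, 2.69 and 2.24 RPKM of these CD133(high)CD71(low) sums. In limma's moderated test on log2(RPKM + 1) with Benjamini-Hochberg adjustment, 10 of 10 were called lower and 0 higher at an adjusted p under 0.05. Of all 16887 genes tested, 10.2% were called lower and 5.67% higher. Since the list was chosen with earlier results of these data known, its share was not tested against that of all genes. Fold changes are negative where CD133(high)CD71(low) cells were lower. The median log2 fold change was -2.22 for the 10 genes and 0.18 for all genes. Median-of-ratios scaling moved the median of all genes from 0.18 to 0.0042. Of all calls, 17.8% in place of 35.7% were then on the higher side. All 10 dendritic cell genes stayed called lower, while lower genes over all tested rose from 1729 to 2058. Every CD133(high)CD71(low) library was below every CD133(positive)CD71(negative) library for 10 of 10 genes, against 18.0% of all genes. In bulk RNA, fewer dendritic cells and less RNA per cell cannot be told apart.

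**Figure D1:**
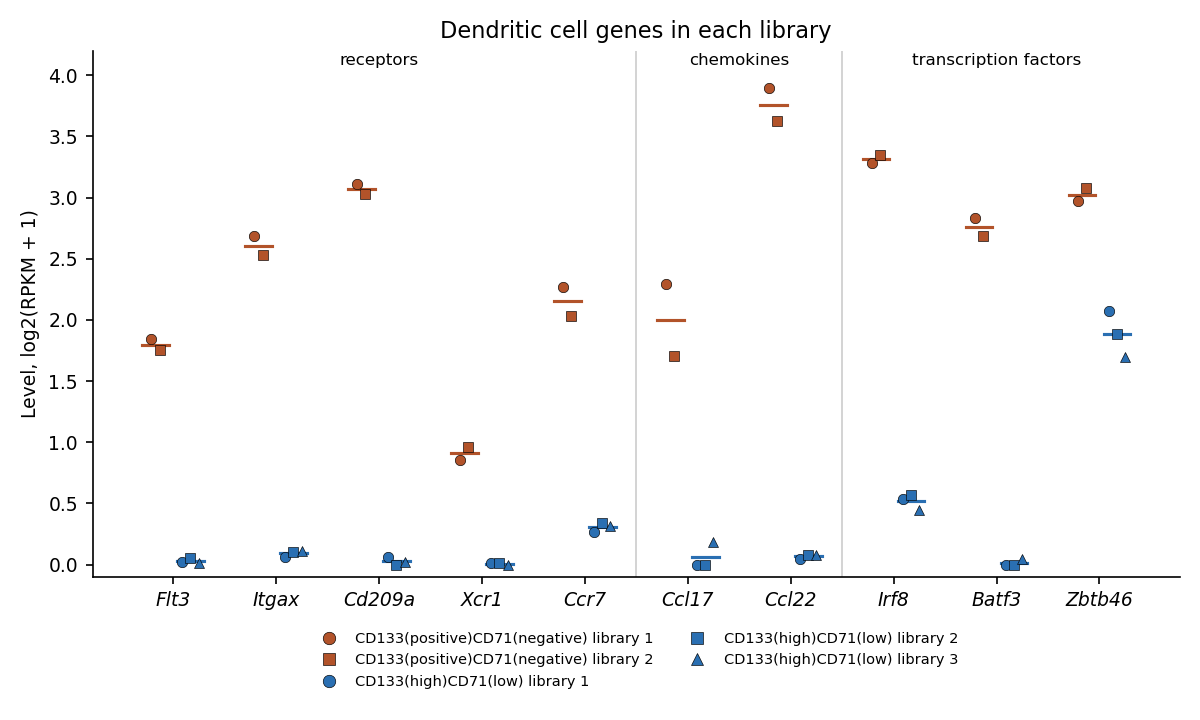
Level of each dendritic cell gene in each of the 5 libraries, as log2(RPKM + 1), ordered by role. Points are libraries and short lines are group means. The groups do not overlap for any of the 10 genes, and Zbtb46 keeps the highest level among CD133(high)CD71(low) libraries, 2.24 to 3.22 RPKM.

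Among libraries of a group the levels were close for the numbered pairs (Pearson r across genes of 0.995 and 0.996). Library 3 of CD133(high)CD71(low), whose table lists 22522 symbols where the others list 18618, was less like the pair of numbered libraries (r = 0.957 and 0.961). Depth, estimated from the step of 1 read, was 19760000 to 41920000 reads. The highest depth is that of library 3, whose table also states a total of alignments. In a unit that makes this estimated depth 41.92, the stated total is 74.2. Why the stated total is higher was not tested, and the read numbers given here rest on the estimated depths. At these depths the values of 8 genes with a single annotated transcript length can be read as approximate read numbers, and intervals on them cover counting error only. The list of 13 genes of acinar cells, the enzyme-secreting cells of the pancreas, summed to 242313 and 217053 RPKM in the CD133(positive)CD71(negative) libraries. It summed to 202387 and 204892 RPKM in CD133(high)CD71(low) libraries 1 and 2, and to only 92665 RPKM in library 3.

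Upstream sequence is shown for 1 gene of each kind, a general marker (Itgax), a cDC2 gene (Cd209a), a cDC1 gene (Xcr1) and a gene of mature cells (Ccl22). Each is the stretch of 250 bases that ends at the RefSeq transcript start (GRCm38.p6, the sequence of mm10), written 5′ to 3′ on the gene's strand. Capitals mark GGAAGT or its reverse complement ACTTCC, the core bound by PU.1, an ETS factor of myeloid cells and dendritic cells.
Itgax, chr7:128129300-128129549, plus strand: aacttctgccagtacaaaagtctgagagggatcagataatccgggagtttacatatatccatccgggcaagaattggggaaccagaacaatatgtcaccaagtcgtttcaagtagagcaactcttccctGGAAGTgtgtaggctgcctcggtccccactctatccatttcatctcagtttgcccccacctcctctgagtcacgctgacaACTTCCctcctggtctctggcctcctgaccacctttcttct
Cd209a, chr8:3748985-3749234, minus strand: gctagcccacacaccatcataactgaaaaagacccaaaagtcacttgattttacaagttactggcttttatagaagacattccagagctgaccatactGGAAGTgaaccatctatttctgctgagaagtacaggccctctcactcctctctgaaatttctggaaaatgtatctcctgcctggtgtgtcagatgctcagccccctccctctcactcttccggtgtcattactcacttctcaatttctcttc
Xcr1, chr9:123862030-123862279, minus strand: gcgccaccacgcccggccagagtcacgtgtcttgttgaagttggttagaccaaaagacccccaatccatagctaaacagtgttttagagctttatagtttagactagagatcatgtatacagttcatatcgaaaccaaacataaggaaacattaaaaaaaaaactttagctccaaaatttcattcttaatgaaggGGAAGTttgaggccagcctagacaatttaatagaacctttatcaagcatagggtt
Ccl22, chr8:94745434-94745683, plus strand: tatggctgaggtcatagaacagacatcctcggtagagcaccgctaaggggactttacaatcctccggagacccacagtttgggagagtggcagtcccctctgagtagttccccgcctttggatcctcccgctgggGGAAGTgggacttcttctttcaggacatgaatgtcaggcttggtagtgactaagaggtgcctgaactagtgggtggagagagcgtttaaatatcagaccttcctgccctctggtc
Itgax held this core 2 times, 115 and 35 bases before the start, and Cd209a, Xcr1 and Ccl22 held it 1 time each, 146, 49 and 109 bases before it. Windows were available for 9 of the 10 genes with 10 starts, all but Ccr7, and Irf8 had more than 1 start. The windows of Batf3 and Zbtb46 and 1 of Irf8 lie inside the annotated span of their gene, given below. Those of Ccl22 and Itgax run partly into theirs, and the distances above are counted to the RefSeq start. The core was in 6 of these 10 windows, of Itgax, Cd209a, Xcr1, Ccl22, Flt3 and Batf3, and in 19.7% of all 32851 windows of that length. The windows of Zbtb46 and Ccl17 and both windows of Irf8 lacked it. The AP-1 sequence TGANTCA was in the windows of Itgax and Zbtb46 and in 6.75% of all windows, and no copy overlapped the PU.1 core. The interferon response type, GAAA and again GAAA with 2 free bases between, was in 0 of the 10 windows and in 2.98% of all. Both strands were searched, and a match is a description of letters and not of binding. Sfpi1, which encodes PU.1, was lower, at 11.97 and 11.00 RPKM against 0.56, 0.49 and 0.20 RPKM (log2 fold change -3.15, limma adjusted p = 0.000808). So were 12 of 12 genes of most leukocytes, described below, and a part of PU.1 in the levels was not tested.

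All 5 receptor genes fell, and Flt3, Cd209a and Xcr1 were at 0 to 3.99 estimated reads in each CD133(high)CD71(low) library. Flt3 encodes the cytokine receptor that sustains dendritic cell precursors and conventional dendritic cells. It measured 2.58 and 2.37 RPKM for CD133(positive)CD71(negative) and 0.017, 0.035 and 0.0065 RPKM for CD133(high)CD71(low), the latter an estimated 2.00, 3.99 and 1.00 reads. The log2 fold change was -1.77 (SE 0.054, limma adjusted p = 0.000482). Pooled reads, 411 against 7, gave a ratio of 136 per read sequenced (95% exact interval 65.4 to 341). Itgax encodes CD11c, an integrin chain of most dendritic cells and of some macrophages. It measured 5.44 and 4.77 RPKM against 0.047, 0.072 and 0.083 RPKM (log2 fold change -2.51, SE 0.085, limma adjusted p = 0.000482). Each CD133(high)CD71(low) library kept an estimated 6.02 to 14.0 Itgax reads.

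Cd209a, encoding a C-type lectin related to human DC-SIGN, measured 7.66 and 7.17 RPKM against 0.042, 0 and 0.016 RPKM. Its log2 fold change was -3.04 (SE 0.085, limma adjusted p = 0.000482), and the pooled reads were 498 against 3, a ratio of 385 (95% exact interval 131 to 1871). CD133(high)CD71(low) library 2 had it listed at 0, where 3 reads would be a level of 0.066 RPKM. The neighbouring paralogs Cd209d and Cd209e were low in all libraries, at no more than 0.82 and 0.11 RPKM, and reads of such relatives can be split among them. Xcr1, encoding the chemokine receptor that marks cDC1, had the lowest level of the 10 genes in CD133(positive)CD71(negative) cells. It measured 0.81 and 0.95 RPKM against 0.0070, 0.0073 and 0 RPKM (log2 fold change -0.90, SE 0.042, limma adjusted p = 0.000606). That was 176 reads in 2 libraries against 2 reads in 3 libraries, a ratio of 204 (95% exact interval 55.6 to 1697). The fold change on the log2(RPKM + 1) scale understates such low genes, which is why Xcr1 has the smallest value there.

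Ccr7, the receptor for lymph node homing, which naive T cells and B cells also carry, kept more of its level than these. It measured 3.83 and 3.09 RPKM against 0.21, 0.26 and 0.24 RPKM (log2 fold change -1.85, SE 0.099, limma adjusted p = 0.000884). Each of the 3 CD133(high)CD71(low) libraries held an estimated 13.0 to 20.0 reads, and the pooled ratio was 14.8 (95% exact interval 11.0 to 20.5). That interval does not overlap those of Flt3, Cd209a, Itgax or Xcr1, but they cover counting error and not spread between libraries. Beside it, the T cell gene Cd3e was at 0.55 and 0.46 RPKM against 0.131, 0.135 and 0.249 RPKM, and the B cell gene Ms4a1 (CD20) at 1.22 and 1.23 RPKM against 0.36, 0.44 and 0.35 RPKM. The part of T and B cells in the remaining Ccr7 level was not tested.

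Both chemokine genes fell. Ccl22 was the highest of the 10 genes in CD133(positive)CD71(negative) cells, at 13.9 and 11.4 RPKM, and measured 0.035, 0.054 and 0.054 RPKM in CD133(high)CD71(low) cells. At -3.69 on the log2 scale (SE 0.12, limma adjusted p = 0.000482) its change was the largest of the 10 on this scale, which weighs high genes more. The estimated reads were whole in CD133(high)CD71(low) library 3 (4.998) but not in libraries 1 and 2 (2.44 and 3.66), and the transcript length behind the values may differ between the tables. Ccl17, which lies near Ccl22 on chromosome 8, measured 3.89 and 2.26 RPKM against 0, 0 and 0.14 RPKM, the last an estimated 3.00 reads. Its log2 fold change was -1.93 (SE 0.19, limma adjusted p = 0.00563), and its SE was the largest of the 10 genes. Pooled Ccl17 reads were 74 against 3, a ratio of 57.2 (95% exact interval 18.8 to 283).

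The transcription factor genes split into one that was all but absent, one that was low and one that remained. Batf3, an AP-1 family factor required for cDC1, measured 6.11 and 5.45 RPKM against 0, 0 and 0.033 RPKM (log2 fold change -2.74, SE 0.084, limma adjusted p = 0.000482). Its pooled reads were 210 against 1, a ratio of 487 whose 95% exact interval ran from 86.4 to 19310. Irf8, which cDC1, plasmacytoid dendritic cells, monocytes and B cells all use, measured 8.71 and 9.16 RPKM against 0.45, 0.48 and 0.36 RPKM (log2 fold change -2.80, SE 0.11, limma adjusted p = 0.000482). Zbtb46, a zinc finger factor of conventional dendritic cells that endothelial cells also express, measured 6.84 and 7.43 RPKM against 3.22, 2.69 and 2.24 RPKM. Its log2 fold change was -1.14 (SE 0.16, limma adjusted p = 0.0148), with a ratio of group means of 2.63. Zbtb46 was no longer called when CD133(positive)CD71(negative) library 1 or 2 or CD133(high)CD71(low) library 2 was left out (limma adjusted p = 0.112, 0.120 and 0.0736), while the groups did not overlap.

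**Figure D2:**
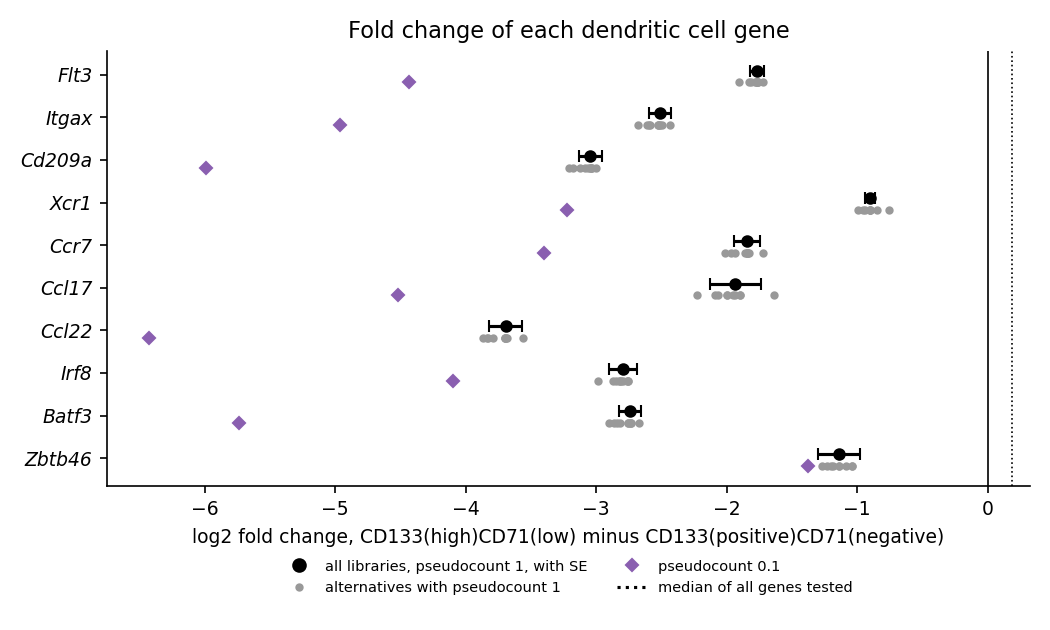
Log2 fold change of each dendritic cell gene (negative where the CD133(high)CD71(low) mean was lower) with its SE in black, and the value under each alternative processing beside it. All values lie below 0, those of a pseudocount of 0.1 farthest, and the dotted line is the median of all genes tested, 0.18.

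The endothelial list moved between the same groups as Zbtb46. Of its 16 genes 15 were lower and 0 higher, with a median log2 fold change of -2.41, and its summed level was 1012 and 943 RPKM against 275.9, 169.8 and 91.7 RPKM. Relative to the CD133(positive)CD71(negative) mean, Zbtb46 stood at 45.1%, 37.8% and 31.4% and the endothelial sum at 28.2%, 17.4% and 9.39%. Without CD133(high)CD71(low) library 2, only 2 of the 16 endothelial genes were still called lower, at a median of -2.43. The median was -2.39 without library 1 of CD133(positive)CD71(negative) cells and -2.44 without their library 2. Those 2 fits rest on 1 CD133(positive)CD71(negative) library, and most of the 15 calls were lost there too. The part of endothelial cells in the Zbtb46 level was not tested.

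In CD133(positive)CD71(negative) cells the order of levels was Ccl22, Irf8, Cd209a, Zbtb46, Batf3, Itgax, Ccr7, Ccl17, Flt3 and Xcr1. The libraries overlapped between Cd209a and Zbtb46, between Ccr7 and Ccl17 and between Ccl17 and Flt3, so these neighbours did not differ beyond their spread. In CD133(high)CD71(low) cells Zbtb46, Irf8 and Ccr7 led without overlap, and the other 7 genes overlapped with their neighbours at 0 to 0.14 RPKM.

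The summed level of 12 pan-leukocyte genes, such as the CD45 gene Ptprc (9.76 and 10.3 RPKM against 0.48, 0.42 and 0.29 RPKM), gave a scale for all leukocytes. It was 193.2 and 186.4 RPKM against 13.9, 11.9 and 9.26 RPKM, and 12 of 12 genes were lower. Flt3 made up 1.34% and 1.27% of that sum in CD133(positive)CD71(negative) cells and 0.12%, 0.30% and 0.070% in CD133(high)CD71(low) cells. Cd209a went from 3.97% and 3.84% to 0.30%, 0 and 0.17%, and Ccl22 from 7.17% and 6.09% to 0.25%, 0.45% and 0.58%. Irf8 (4.51% and 4.92% against 3.25%, 4.05% and 3.88%) was closer to proportion. The groups overlapped for Ccr7 (1.98% and 1.66% against 1.47%, 2.21% and 2.60%) and for Ccl17 (2.01% and 1.21% against 0, 0 and 1.51%). Zbtb46 went the other way, from 3.54% and 3.98% to 23.1%, 22.7% and 24.2%. These shares were not tested.

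**Figure D3:**
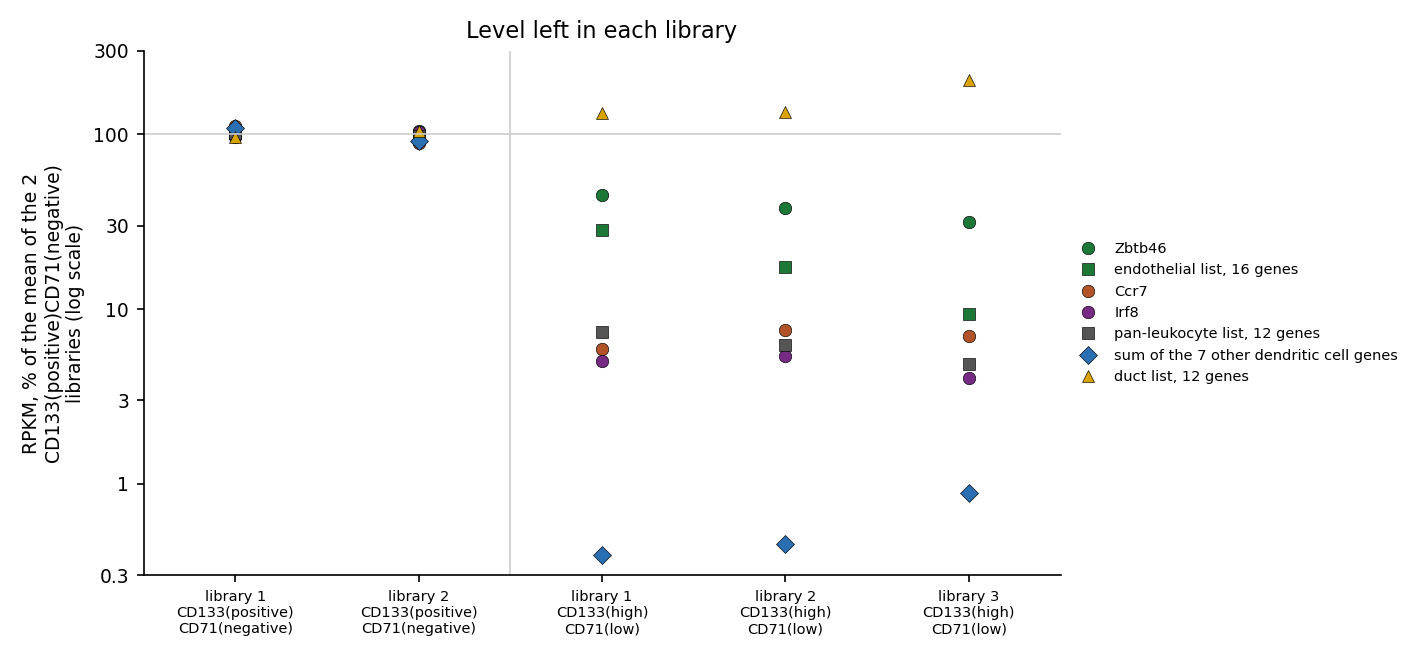
Level in each library as a percent of the mean of the 2 CD133(positive)CD71(negative) libraries, on a log scale. For CD133(high)CD71(low) the sum of the 7 other dendritic cell genes (a grouping made after their values were seen) is at 0.39% to 0.89%, Irf8 and Ccr7 lie near the pan-leukocyte sum, and Zbtb46 lies above the endothelial sum.

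Genes of the molecules that bind the products of the 10 genes were mostly low. Of 6 such genes 4 were lower, 0 were higher and 2 were not called. Flt3l, the ligand of FLT3, kept 6.60 and 6.89 RPKM against 4.62, 4.28 and 5.72 RPKM and was not called (limma adjusted p = 0.135). Itgb2, the integrin chain that pairs with CD11c in many leukocytes, fell from 12.3 and 12.5 to 1.00, 0.85 and 0.59 RPKM (log2 fold change -2.89, limma adjusted p = 0.000808). Ccl19, a ligand of CCR7, fell from 1.52 and 0.91 to 0.17, 0.22 and 0 RPKM (limma adjusted p = 0.0207). Ccl21a, the other ligand, has near-identical copies and is uncertain (1.59 and 1.00 against 0.30, 0.0035 and 0.027 RPKM). Ccr4, the receptor of CCL17 and CCL22, had an estimated 1.00 and 2.00 reads for CD133(positive)CD71(negative) and was listed at 0 in the other 3, below the floor of 3 reads throughout. Xcl1, the ligand of XCR1, had an estimated 3.11 reads in each CD133(positive)CD71(negative) library and fell from 0.23 and 0.30 to 0, 0 and 0.046 RPKM (limma adjusted p = 0.00812). The list had 2 lower genes without CD133(positive)CD71(negative) library 1 or CD133(high)CD71(low) library 2.

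Further markers of each subset were present in CD133(positive)CD71(negative) cells. Of 12 other cDC1 genes 6 were lower and 0 higher (median log2 fold change -0.48). The 2 with the smallest p were Wdfy4, needed for cross-presentation (4.403 and 4.608 against 0.19, 0.16 and 0.072 RPKM), and the orphan receptor gene A530099J19Rik, an older symbol of Gpr141b (0.88 and 0.84 against 0.023, 0 and 0.0086 RPKM). The lectin gene Clec9a, named after its values were seen, fell from 2.71 and 3.08 to 0.39, 0.31 and 0.30 RPKM (limma adjusted p = 0.000884). The 6 not called were Cadm1, Tlr3, Naaa, Snx22, Ppt1 and Id2, and Cadm1 was at 36.7 to 67.2 RPKM in CD133(high)CD71(low) cells. Leaving out CD133(high)CD71(low) library 2 gave 4 lower genes in place of 6.

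Of 12 other cDC2 genes 9 were lower and 0 higher (median -1.005). Irf4, the factor of this subset, fell from 1.65 and 1.51 to 0.11, 0.097 and 0.10 RPKM (log2 fold change -1.22, SE 0.046, limma adjusted p = 0.000482). Itgam, encoding CD11b of cDC2 and of macrophages and monocytes, fell from 6.19 and 5.97 to 0.24, 0.17 and 0.077 RPKM. The lectin genes Mgl2 (10.7 and 9.03 against 0.40, 0.34 and 0.31 RPKM) and Clec10a (4.11 and 3.87 against 0.23, 0.11 and 0.12 RPKM), named after their values were seen, fell as well. The 3 not called were Sirpa, Clec4a4 and Ltb. Esam, which is in this list and in the endothelial list, measured 43.9 and 39.9 against 11.4, 7.88 and 4.54 RPKM. Leaving out CD133(high)CD71(low) library 2 gave 6 lower genes in place of 9.

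Of 24 other genes of mature and migratory dendritic cells 15 were lower and 0 higher (median -0.64). Cd86, a costimulatory ligand for T cells, fell from 1.37 and 1.37 to 0.11, 0.10 and 0.11 RPKM, and the adaptor gene Samsn1 from 2.53 and 2.57 to 0.051, 0.12 and 0 RPKM (both limma adjusted p = 0.000482). Named after their values were seen, the actin bundling gene Fscn1 fell from 15.6 and 15.1 to 1.30, 0.78 and 0.55 RPKM and the chemokine gene Ccl5, also a product of T and NK cells, from 22.2 and 12.2 to 0.12, 0.061 and 0.18 RPKM. Il12b, the cytokine chain of activated dendritic cells, was at 0.24 and 0.23 RPKM and listed at 0 in all 3 CD133(high)CD71(low) libraries. The NF-kappaB genes Relb and Nfkb2 were not called and stood at 10.4 to 17.04 RPKM in all 5 libraries. Leaving out either CD133(positive)CD71(negative) library gave 10 lower genes in place of 15.

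By subset, the 10 genes hold the cDC1 marker gene Xcr1, the cDC2 gene Cd209a and the mature cell genes Ccr7, Ccl17 and Ccl22. They also hold Batf3, a factor that cDC1 requires, and each of these was lower. Whether the Batf3 level came from cDC1 alone was not tested. The levels allow no share of cells to be read off. For CD133(high)CD71(low) libraries 1 to 3, the other cDC1 genes summed to 96.2%, 96.9% and 145.6% of the CD133(positive)CD71(negative) mean. The other cDC2 genes summed to 52.2%, 49.95% and 50.2%, and plasmacytoid genes to 69.9%, 59.4% and 56.0%. High genes weigh most in such sums, here Id2, Cadm1 and Ppt1 for cDC1 and Sirpa and Esam for cDC2. Gene by gene, the median ratio of group means was 48.6% for the other cDC1 genes and 7.61% for the other cDC2 genes. The cDC1 genes called lower were at 1.21% (A530099J19Rik) to 57.1% (Itgae), and those not called at 40.2% (Naaa) to 205.6% (Cadm1). Of 13 plasmacytoid genes 3 were lower, Spib (1.73 and 1.36 against 0.28, 0.26 and 0.14 RPKM), Irf7 (13.4 and 14.9 against 7.64, 6.42 and 6.71 RPKM) and Ccr9, and 10 were not called. The defining gene Siglech was at 0.15 and 0.042 RPKM against 0.091, 0.014 and 0.067 RPKM, and the groups overlapped. Leaving out either CD133(positive)CD71(negative) library or CD133(high)CD71(low) library 2 gave 1 lower gene in place of 3, and leaving out CD133(high)CD71(low) library 3 gave 6.

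Of 19 other regulators of dendritic cell development 8 were lower and 0 higher (median -0.027). Ikzf1, encoding the lymphoid factor Ikaros, fell from 2.17 and 2.53 to 0.24, 0.22 and 0.19 RPKM (log2 fold change -1.46, SE 0.073, limma adjusted p = 0.00072), and Sfpi1 gave the next smallest p. The 11 not called included genes that epithelial cells express too, such as Id2 at 53.1 and 58.8 against 63.05, 63.99 and 83 RPKM and Stat3 at 17.4 and 18.7 against 15.99, 15.94 and 22.2 RPKM.

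Of 12 antigen presentation genes 11 were lower and 0 higher (median -3.55). Their summed level was 16.3 times higher in CD133(positive)CD71(negative) cells, beside 16.2 times for the pan-leukocyte list and 15.8 times for the 10 dendritic cell genes. Most of the dendritic cell sum left in CD133(high)CD71(low) cells was Zbtb46. The other 9 genes summed to 1.62%, 1.83% and 1.87% of the CD133(positive)CD71(negative) mean in CD133(high)CD71(low) libraries 1 to 3. The pan-leukocyte sum was at 7.35%, 6.26% and 4.88%. H2-Eb1, which codes for an MHC class II chain, went from 186.4 and 189.1 down to 5.05, 4.91 and 3.04 RPKM (log2 fold change -5.17, SE 0.21, limma adjusted p = 0.000489). Ctss, the protease that trims the invariant chain, fell from 42.3 and 37.03 to 1.22, 0.84 and 0.62 RPKM. Ctsh was not called.

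Other leukocytes moved between the same groups. Of 18 macrophage and monocyte genes 15 were lower and 1 higher (median -2.26). Ccr2 fell from 13.7 and 14.8 to 0.099, 0.10 and 0.087 RPKM and Emr1, encoding F4/80, from 4.57 and 4.74 to 0.15, 0.22 and 0.13 RPKM. The 1 higher gene was Cd14, at 19.4 and 21.3 against 37.6, 35.5 and 35.2 RPKM, a call lost under median-of-ratios scaling, under quantile normalization and without CD133(positive)CD71(negative) library 1 or CD133(high)CD71(low) library 2. The summed level of this list was 614.1 and 604.9 RPKM against 87.0, 79.0 and 63.7 RPKM. Of 12 B and plasma cell genes 6 were lower and of 15 T and NK cell genes 7 were lower, with 0 higher in either list. The smallest p were those of Igj, the antibody joining chain (111.1 and 85.1 against 1.32, 1.49 and 3.63 RPKM), and Ms4a1 among B cell genes and of Nkg7 (0.43 and 0.37 against 0.077, 0.040 and 0.081 RPKM) and Cd8a (0.58 and 0.47 against 0.11, 0.052 and 0.064 RPKM) among T and NK cell genes. No gene of either list was at 0 in both CD133(positive)CD71(negative) libraries. Leaving out either CD133(positive)CD71(negative) library or CD133(high)CD71(low) library 2 gave 3 lower B and plasma cell genes in place of 6. Without library 1 or 2 of CD133(high)CD71(low) there were 4 lower T and NK cell genes in place of 7. Summed levels were 153.8 and 129.7 against 40.8, 39.0 and 48.2 RPKM for the B and plasma cell list and 5.92 and 6.96 against 2.79, 2.75 and 3.71 RPKM for the T and NK cell list. Many of the dendritic cell genes are shared with these cells, and how much of each level they contributed was not tested.

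Of 12 duct genes 0 were lower and 7 higher (median 0.84), led by Krt19 (74.6 and 81.4 against 155.7, 142.0 and 149.2 RPKM) and Pkhd1 (22.2 and 24.9 against 43.7, 44.0 and 50.7 RPKM). The count of higher genes was 0, 1, 2 and 1, at medians of 0.69, 0.94, 0.81 and 0.77, without CD133(positive)CD71(negative) library 1, its library 2, CD133(high)CD71(low) library 1 and its library 2. Of 13 acinar genes 0 were called in either direction in limma (median -0.40), and 0 in every alternative that kept both CD133(positive)CD71(negative) libraries. Their SE reached 2.04 (Amy2a5), so the lack of calls does not show equal levels. For 9 of the 13, every CD133(high)CD71(low) library was below every CD133(positive)CD71(negative) library, against 18.0% of all genes.

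**Figure D4:**
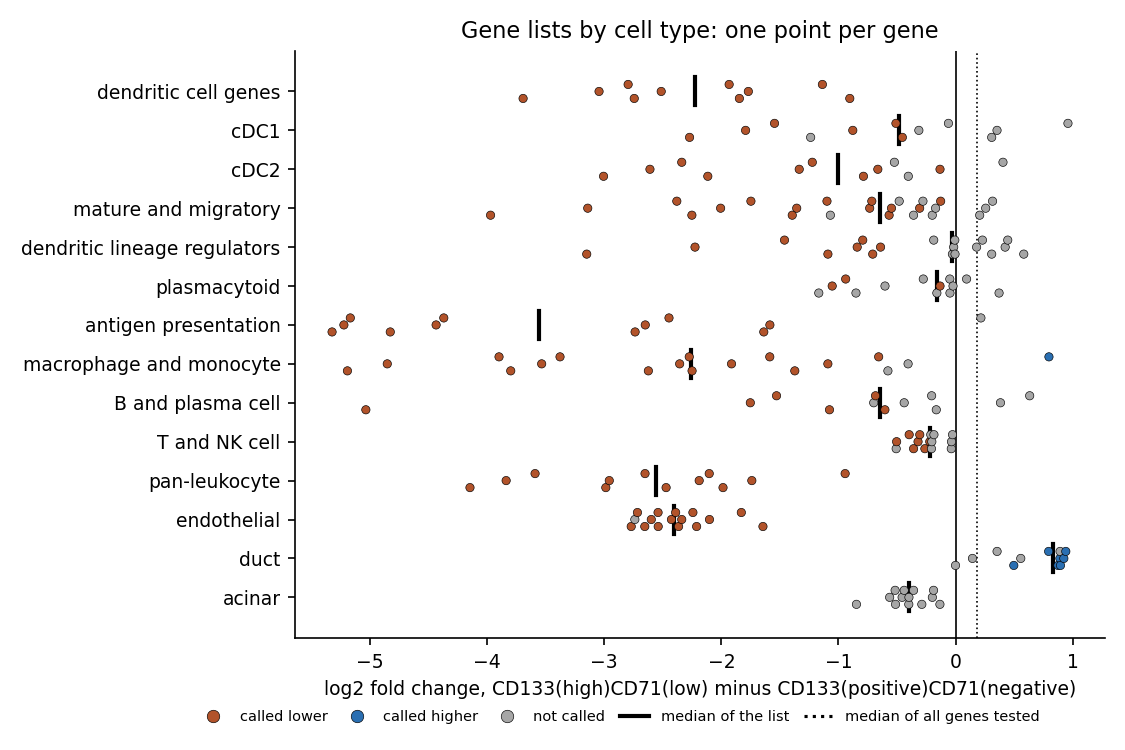
Log2 fold change of every gene of the dendritic cell genes and 13 cell type and function lists, coloured by the limma call. Thick bars are list medians, -2.22 for the dendritic cell genes, -2.56 for pan-leukocyte genes, -2.41 for endothelial genes and 0.84 for duct genes.

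The genes whose profile over the 5 libraries lay closest to the mean profile of the 10 were Ifitm6, Itgb7, Cd53, Plac8 and Sla. Likeness was the root mean square distance of log2(RPKM + 1) values centred on each gene's mean, over genes with a mean of at least 1, and it ran from 0.0076 (Ifitm6) to 0.054 (Sla). Ifitm6 was at 3.91 and 3.54 RPKM and listed at 0 in the 3 CD133(high)CD71(low) libraries. Itgb7, an integrin chain of lymphocytes and of some dendritic cells, was at 5.70 and 4.98 against 0.37, 0.39 and 0.29 RPKM.

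In mm10 (GENCODE M21) the 10 genes are protein coding and lie on 7 chromosomes. Cd209a (chr8:3743397-3748984), Ccl22 (chr8:94745590-94751699), Ccl17 (chr8:94810453-94812036) and Irf8 (chr8:120736358-120756694) share chromosome 8. The others are Batf3 (chr1:191097847-191108945), Zbtb46 (chr2:181387762-181459426), Flt3 (chr5:147330741-147400489), Itgax (chr7:128129547-128150657), Xcr1 (chr9:123852315-123862029) and Ccr7 (chr11:99144196-99155077).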

How the data were processed

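RNA sequencing tables of 5 libraries were used, grouped by sample title, and the unnumbered CD133(high)CD71(low) title is called library 3. The authors deposited 1 value per gene symbol, which behaves as RPKM. Per the submitters' processing notes Partek and mm10 were used, and which aligner and annotation were used is not given in the sources used here. Low values times GENCODE M21 transcript length fell on whole reads within 0.05 for 53.9% to 57.0% of values (10.0% by chance), which gave the depths but too few whole values for count tests. A row of library 3 that names no gene but a total of alignments was left out. Replicates differed by 2.90 times the sampling variance or more, so none was counted as a duplicate.

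log2(RPKM + 1) of the 16887 common symbols above 0 in at least 1 library was tested with limma 3.58.1 (R 4.3.3; empirical Bayes with trend, group as the sole term, Benjamini-Hochberg over all genes, threshold 0.05), with no minimum mean. Scripts were tested on simulated data. Read ratios have Clopper-Pearson intervals. The members and 14 comparison lists were chosen with earlier results of these data known. Of the listed genes 2 were not among the common symbols, and 7 entries were matched by an older symbol. Genes named are the 10, the 6 binding partners, Ptprc, the 2 of smallest adjusted p per list (ties by p, or the 2 highest if none is called) and the 5 nearest profiles. Others are said to be named after their values were seen, or are given as list members not called or beside a result. Upstream sequences are RefSeq's (GRCm38.p6). Alternatives were leaving out each library, quantile normalization, a pseudocount of 0.1, a replicate block, scaling by median-of-ratios (on all libraries, and on only the 4 that are numbered) and a minimum mean of 1. Python 3.11.15, pandas 2.3.3, scipy 1.17.1 and matplotlib 3.10.9 were used.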

Additional observations from a re-analysis of the deposited data

How the results depend on the processing

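Over the 11 alternatives the 10 genes gave 109 fold changes, since Xcr1 had no value under a mean of at least 1. None reversed, 106 stayed called, and the 3 that did not were of Zbtb46 with a library left out. The median log2 fold change of the genes was -4.48 with a pseudocount of 0.1 and -2.51 with a mean of at least 1 (9 genes), and -2.41 to -2.08 with each library left out. Their summed ratio was 19.2 under median-of-ratios scaling and 14.9 to 16.8 with each library left out. Counts over all genes moved more. Lower genes numbered 850 with a mean of at least 1 (11769 tested) and 885 to 2166 with each library left out. Higher genes numbered 446 under median-of-ratios scaling and 17 to 3662 with each library left out, the latter without CD133(high)CD71(low) library 3. The replicate block on the 4 numbered libraries called 10 of 10 dendritic cell genes lower. Of all 16707 genes tested there, it called 1989 lower and 2672 higher. The labels do not tie equal numbers together, and deviations of same-numbered libraries had a correlation of -0.024. With a CD133(positive)CD71(negative) library left out, the lone library is assumed to vary like the other group. Levels of 1 to 4 reads limit the precision of Flt3, Cd209a, Xcr1, Ccl17 and Batf3 in CD133(high)CD71(low) cells. With a mean of at least 1, 1 of 2 tested partner genes, 5 of 7 cDC2 genes, 4 of 13 regulators, 1 of 5 plasmacytoid and 0 of 1 T and NK cell genes were lower, since fewer were tested. Quantile normalization called 4 T and NK cell genes lower, and 4 duct genes and 1 plasmacytoid gene higher. The replicate block, and leaving out CD133(high)CD71(low) library 3, each called 1 cDC1, 1 cDC2, 1 mature and migratory, 2 regulator and 1 B cell gene higher. The block called 5 plasmacytoid genes lower, and median-of-ratios scaling of those 4 libraries called 6. The cause of the other changes in count was not tested.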
